A study of Mus musculus with 12 samples.

Results

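The dystrophin-glycoprotein complex was followed through 8 of its genes in the gastrocnemius muscle of mice that express DUX4, the transcription factor whose misexpression in muscle causes facioscapulohumeral muscular dystrophy. The 8 genes, Dmd, Utrn, Dag1, Sgca, Sgcb, Sgcd, Sntb1 and Dtna, were taken by their symbols from the 37748 genes of the deposited table, and all 8 passed the filter on low counts. RNA was sequenced from 12 mice of 13 weeks in 4 groups of 3. Control mice were ACTA1-MCM/+, in which a tamoxifen-dependent Cre recombinase (MerCreMer, MCM) is driven in skeletal muscle by the skeletal actin promoter. They are recorded with no tamoxifen (TMX). FLExD/+ mice (FLExDUX4/+ in the labels) carried the Cre-dependent DUX4 transgene without MerCreMer and received no TMX. Moderate and severe mice were bi-transgenic (FLExDUX4/+;MCM/+) and were sampled at day 9. The moderate group received 1 intraperitoneal TMX injection of 5 mg/kg, and the severe group received 2 injections of 10 mg/kg on consecutive days. Recombination is mosaic in these models, so a muscle holds fibers with and without DUX4. The controls are recorded here with 0 TMX injections, so the effects of TMX and of the DUX4 transgene cannot be told apart against them. The paper lists TMX-injected ACTA1-MCM/+ mice as controls of its models and does not state the treatment of its RNA-seq controls.

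The complex joins the actin cytoskeleton inside the muscle fiber to the laminin-rich matrix outside it, and its loss leaves the fiber membrane open to damage during contraction. Dystrophin (Dmd) binds actin and, near its other end, dystroglycan (Dag1), whose sugar chains bind laminin. The sarcoglycans (among them Sgca, Sgcb and Sgcd) form a complex beside dystroglycan, while dystrobrevin (Dtna) and the syntrophins (among them Sntb1) sit under the membrane and hold signaling proteins such as neuronal nitric oxide synthase (Nos1). Utrophin (Utrn) is the autosomal relative of dystrophin, concentrated at neuromuscular junctions and present along the membrane of regenerating fibers.

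The library totals were 23796902 to 29136403 expected counts, and the members held 191 (Sntb1) to 14285 (Dmd) counts per mouse. The labels were checked with Wfdc3, a DUX4 target in mouse muscle, which was at most 0.386 counts per 1000000 (CPM) in the 6 single-transgenic mice and 62.5 to 116 CPM in the 6 bi-transgenic mice. Esr1, part of whose sequence is in MerCreMer, was 422 to 818 CPM in controls, 27.4 to 37.9 in FLExD/+, 95.9 to 123 in moderate and 35.2 to 37.4 in severe mice. In CPM the severe mice lay within the range of the FLExD/+ mice, which lack MerCreMer, while in TPM (transcripts per 1000000, which is per length and sums to the same total in every library) Esr1 was 4.87 to 8.78 in FLExD/+ and 38.6 to 45.1 in severe mice. Dmd lies on the X chromosome, and in all 12 mice Xist was 128 to 379 CPM while 4 Y-linked genes summed to 3.04 to 23.4 counts. The muscle label was checked with 8 genes of mature fibers (Ckm, Acta1, Actn3, Mylpf, Tnnt3, Pvalb, Myh4 and Casq1), which summed to 131024 to 186470 CPM in controls and to 8434 to 15374 CPM in severe mice. CPM are scaled here by TMM factors, which set the typical gene level between libraries. These factors were 0.706 to 0.724 in controls and 1.69 to 1.87 in severe mice, so that scaling by library size alone moved the median log2 fold change of all genes from 0.04 to 0.65 in moderate and from 0.08 to 1.38 in severe mice. For this reason the members' values with library size alone or in TPM are given beside results whose direction or call changed there.

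A pair of promoter windows is annotated for Dmd, and both are shown because reads from its long and short transcripts fall into the same gene count. In GENCODE M21 the longest coding Dmd transcript has 79 exons and 14910 bases and starts at 82948903. A short one of 4438 bases starts at 85048413 and has 18 exons, 17 of which overlap exons of the long one. The Dmd windows come from RefSeq starts, end before these GENCODE starts, and are named by the transcript nearest to each. The window of Sgca, the member with the steepest fall, and 1 window of Dag1, a member that rose in moderate mice, are shown beside them. Each is the 250 bases before a RefSeq transcript start on its own strand (GRCm38.p6), with E-boxes (CANNTG on either strand, the motif of myogenic bHLH factors) in capitals.
Dmd, long transcript, chrX:82948620-82948869, plus strand: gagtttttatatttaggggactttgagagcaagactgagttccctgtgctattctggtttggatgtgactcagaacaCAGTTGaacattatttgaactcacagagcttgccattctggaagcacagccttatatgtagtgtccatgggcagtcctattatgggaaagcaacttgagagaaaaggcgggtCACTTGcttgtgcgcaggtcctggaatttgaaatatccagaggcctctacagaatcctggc
Dmd, short transcript, chrX:85048045-85048294, plus strand: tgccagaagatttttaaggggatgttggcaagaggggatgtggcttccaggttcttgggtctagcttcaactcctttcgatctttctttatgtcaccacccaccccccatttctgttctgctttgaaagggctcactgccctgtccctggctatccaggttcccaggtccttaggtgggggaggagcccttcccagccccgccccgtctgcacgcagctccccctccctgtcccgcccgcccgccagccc
Sgca, chr11:94976328-94976577, minus strand: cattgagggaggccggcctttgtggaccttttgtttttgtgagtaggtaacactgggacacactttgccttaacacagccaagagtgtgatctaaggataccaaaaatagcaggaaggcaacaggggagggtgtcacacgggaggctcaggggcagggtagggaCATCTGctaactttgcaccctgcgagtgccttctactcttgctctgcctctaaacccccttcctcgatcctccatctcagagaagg
Dag1, chr9:108263959-108264208, minus strand: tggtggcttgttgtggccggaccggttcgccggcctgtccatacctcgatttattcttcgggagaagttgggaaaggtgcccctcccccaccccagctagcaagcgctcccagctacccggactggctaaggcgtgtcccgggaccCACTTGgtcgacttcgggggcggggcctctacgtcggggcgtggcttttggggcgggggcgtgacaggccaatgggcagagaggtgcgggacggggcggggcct
The window of the long Dmd transcript held 2 E-boxes, that of the short transcript 0, and those of Sgca and Dag1 1 each. E-boxes were found in 66.2% of the 32851 mouse windows of this length, so their presence is common. The G and C share was 45.2% and 60.0% in the long and short Dmd windows, 52.8% in Sgca and 67.6% in the Dag1 window shown. The median over all windows was 52.4%. Another Dag1 window, which overlaps the one shown, held 1 E-box and 74.8% G and C. None of the 8 windows found for 6 members held the E-box CAGCTG (a form of CANNTG), the N-box CCGGAA of synaptic genes, a MEF2 motif or a DUX4 motif, which were in 13%, 12%, 3.20% and 0.956% of all windows. The window of Utrn, which had 7 overlapping or separate E-boxes, lies inside the gene before an exon that is the second of another transcript, and is not shown.

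In the moderate mice 2 members rose and 3 fell, and in the severe mice 1 rose and 4 fell (edgeR quasi-likelihood test over 16679 genes, where a gene counted as called if its adjusted p was under 0.05 and its log2 fold change was 0.5 or more in size). Dag1 and Sntb1 rose and Dmd, Sgca and Dtna fell in moderate mice, where 24.4% of all genes were called higher and 17% lower. In severe mice Sntb1 rose and Dmd, Sgca and Dtna fell, as did Sgcd, whose direction turned under library size and TPM, while 32.9% of all genes were called higher and 27.9% lower. The median log2 fold change of the 8 members was 0.04 in moderate and -0.78 in severe mice. Groups that do not overlap were common, as CPM ranges were apart for 61.0% of all genes in moderate against control mice. That share was 75.0% in severe against control and 61.3% in severe against moderate mice, and the separations given below stand beside these shares. Scaling by library size alone called 5 members higher and 0 lower in moderate mice, against 8760 and 752 of all genes, where TMM gave 4072 and 2830. In severe mice it called 4 members higher and 3 lower, against 12575 and 1071 of all genes, where TMM gave 5480 and 4649. Gastrocnemius is a mixture of cells, so fewer fibers and less RNA per fiber cannot be told apart for any of these genes.

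**Figure D1:**
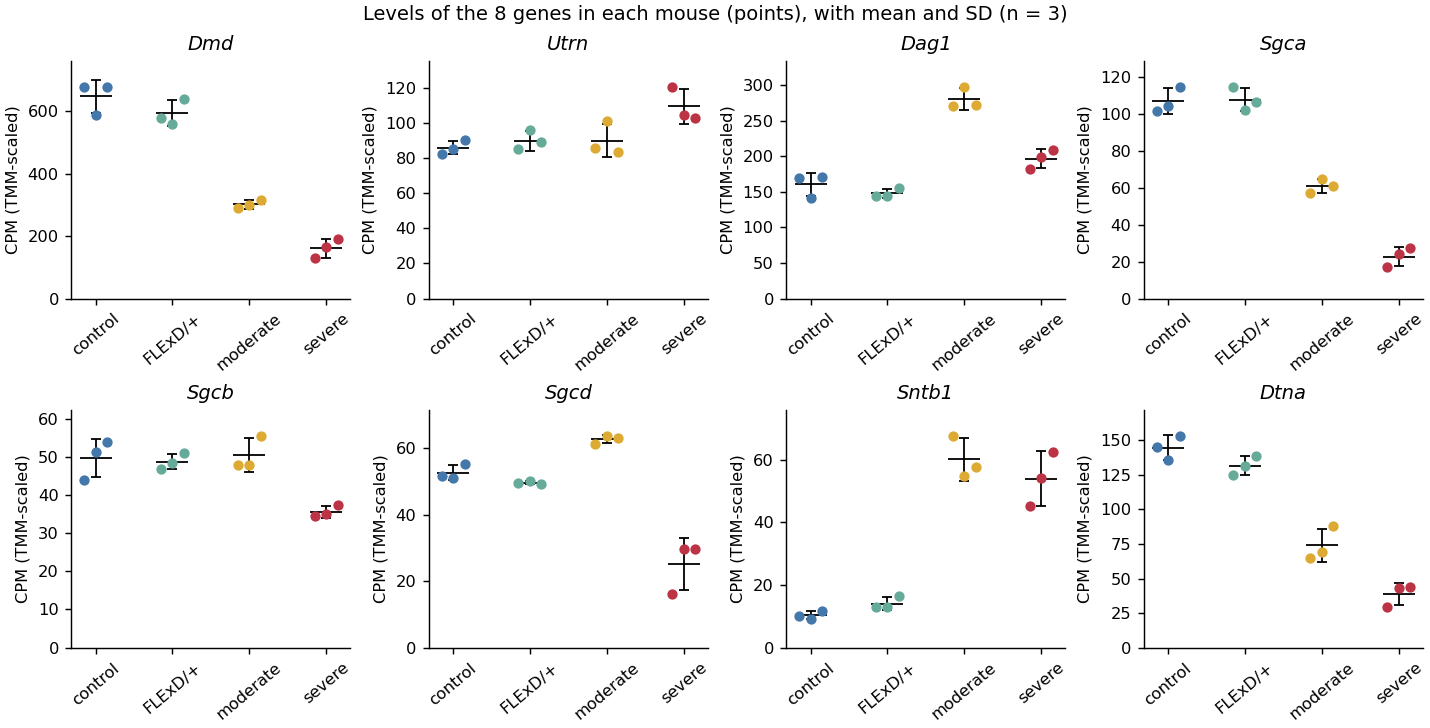
Level of each member (TMM-scaled CPM, y axis from 0) in each mouse (points) by group, with the group mean and SD (bars, n = 3). Dmd, Sgca and Dtna stand lower in both models than in every control, Sntb1 stands higher, while Dag1 is highest in moderate mice and Sgcd lowest in severe mice, both of the latter patterns not being found in TPM or with library size alone.

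Dystrophin mRNA fell at both TMX doses. Dmd (ENSMUSG00000045103, chrX:82948870-85206141, plus strand, GRCm38) was 678, 586 and 677 CPM in the control mice, 579, 559 and 639 in FLExD/+, 289, 299.9 and 316 in moderate and 129, 164 and 189.6 in severe mice. The moderate and severe ranges lay below every single-transgenic mouse and did not overlap each other. Dmd had a log2 fold change from control of -1.10 ± 0.13 (SE) in moderate mice (2.15-fold lower, adjusted p = 1e-05) and -2.01 ± 0.14 in severe mice (4.03-fold lower, adjusted p = 1.2e-08). With library size alone the differences were smaller, at -0.50 in moderate mice (adjusted p = 0.00202), just under the fold threshold, and -0.71 in severe mice (adjusted p = 5.25e-05). Severe mice were lower than moderate mice by a log2 difference of -0.91 ± 0.13 (adjusted p = 8.5e-05), a step that was -0.22 (adjusted p = 0.112) with library size alone and no longer called. The count of Dmd was not a whole number in any of the 12 mice, whereas that of each other member was whole in all 12. Dmd overlaps 5 other genes, among them the coding gene Tsga8, but 5 members with whole counts overlap other genes too.

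Utrophin mRNA was not called in either model with TMM scaling. Utrn (ENSMUSG00000019820, chr10:12382188-12869365, minus strand) was 82.4, 85.3 and 90.1 CPM in controls, 84.9, 96.1 and 88.9 in FLExD/+, 85.7, 101 and 83.2 in moderate and 121, 105 and 103 in severe mice. The 3 severe mice were above all other mice, while the moderate range overlapped the control range. In severe mice the log2 fold change was 0.35 ± 0.10 (adjusted p = 0.00529), under the fold threshold, and with library size alone it was 1.66 (adjusted p = 2.86e-09). In moderate mice it was 0.07 ± 0.10 (adjusted p = 0.602), with a 95% interval of -0.14 to 0.28, and 0.67 with library size alone (adjusted p = 9.26e-05).

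The ratio of utrophin to dystrophin counts within a library does not depend on the scaling between libraries. The log2 ratio was -2.91 ± 0.13 (SD, n = 3) in controls, -2.72 ± 0.16 in FLExD/+, -1.75 ± 0.18 in moderate and -0.54 ± 0.41 in severe mice. Each Utrn count was matched by 6.86 to 8.23 Dmd counts in control mice, by 2.97 to 3.80 in moderate mice and by 1.06 to 1.84 in severe mice, and the 3 ranges did not overlap. The ratio was 2.24-fold higher in moderate than in control mice (log2 difference 1.16, exact two-sided permutation test, p = 0.1). It was 5.17-fold higher in severe than in control mice (log2 difference 2.37, exact permutation p = 0.1) and 2.31-fold higher in severe than in moderate mice (exact permutation p = 0.1). With 3 mice against 3 the smallest p that this test can give is 0.1. FLExD/+ differed from control by 0.19 on the log2 scale (exact permutation p = 0.2). Per length, Utrn reached 1.11 times the TPM of Dmd in severe mouse 1 and 0.801 and 0.636 times in severe mice 2 and 3, against 0.156 to 0.178 in controls.

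**Figure D2:**
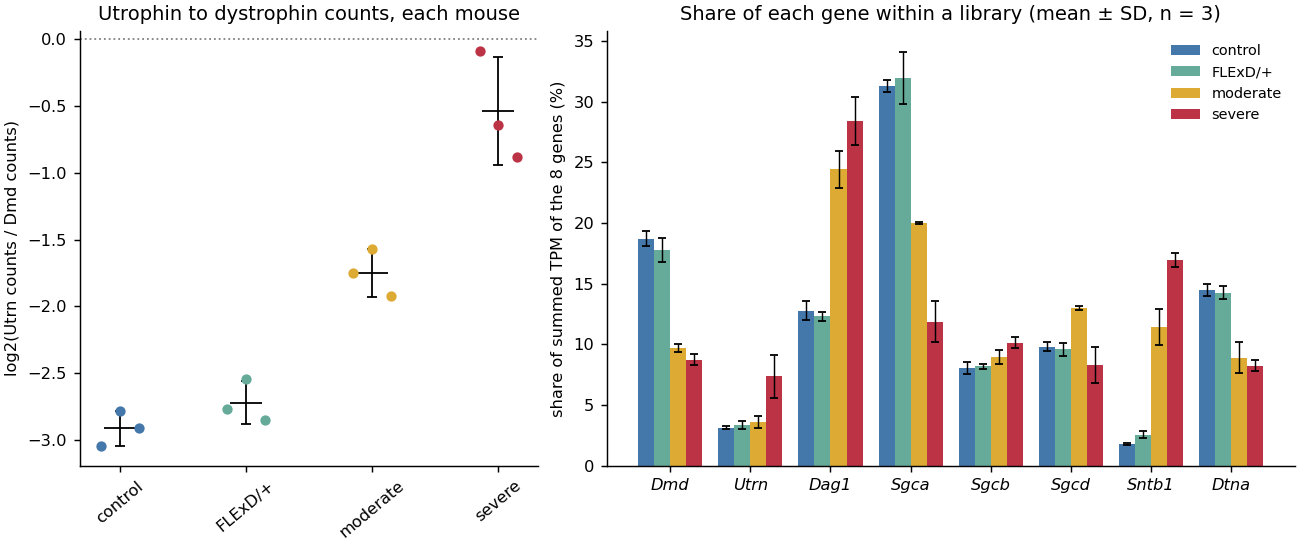
Left, log2 ratio of Utrn to Dmd expected counts in each mouse (points) with mean and SD (n = 3), where the dotted line marks equal counts. Right, share of the summed TPM of the 8 genes held by each gene (bars, mean ± SD, n = 3), in which Dmd went from 18.7% in control to 8.73% in severe mice and Utrn from 3.14% to 7.35%.

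Dystroglycan mRNA rose in moderate mice. Dag1 (ENSMUSG00000039952, chr9:108204634-108263958, minus strand) encodes both dystroglycan subunits and was 169, 141 and 171 CPM in controls, 145, 144 and 156 in FLExD/+, 270.0, 298 and 272 in moderate and 182, 199 and 208 in severe mice. All 6 bi-transgenic mice stood above the single-transgenic mice, and the moderate mice stood above the severe mice. Dag1 had a log2 fold change of 0.80 ± 0.10 in moderate mice (1.75-fold, adjusted p = 1.2e-05) and 0.29 ± 0.10 in severe mice (adjusted p = 0.016), where it was under the fold threshold. With library size alone Dag1 was called higher in severe mice too, at 1.60 (adjusted p = 1.26e-09), and in TPM at 1.46. The fall from moderate to severe, -0.51 ± 0.10 (adjusted p = 0.00076), turned to 0.19 (adjusted p = 0.104) with library size alone and to 0.20 in TPM, and it was under the fold threshold without moderate mouse 2 (-0.47) or severe mouse 1 (-0.46).

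The sarcoglycans did not move as a unit. Sgca (alpha-sarcoglycan, ENSMUSG00000001508, chr11:94962791-94976327, minus strand) was 102, 105 and 115 CPM in controls, 115, 102 and 106 in FLExD/+, 57.0, 64.5 and 61.1 in moderate and 16.9, 24.2 and 27.2 in severe mice, with no overlap between controls and either model. Its log2 fold change was -0.81 ± 0.13 in moderate mice (adjusted p = 0.00016), where library size alone gave -0.21 (adjusted p = 0.128). In severe mice its log2 fold change was -2.23 ± 0.14 (4.71-fold lower, adjusted p = 4.9e-09), the lowest of the 8 members. Sgca overlaps Hils1 on the other strand, and the strand of the reads is not given in the sources used here.

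Beta-sarcoglycan (Sgcb, ENSMUSG00000029156, chr5:73632749-73647790, minus strand) was 44.1, 51.3 and 53.9 CPM in controls, 46.9, 48.6 and 51.0 in FLExD/+, 47.9, 48.0 and 55.6 in moderate and 34.5, 35.0 and 37.4 in severe mice. The severe mice were below all others. The log2 fold change of Sgcb was 0.02 ± 0.09 in moderate mice (adjusted p = 0.863), where library size alone gave a called 0.62 (adjusted p = 5.01e-05) and TPM 0.49, and -0.48 ± 0.09 in severe mice (adjusted p = 0.00027), which was just under the fold threshold and turned to 0.82 with library size alone and 0.64 in TPM. Its fall from moderate to severe (-0.50 ± 0.09, adjusted p = 0.00041) turned to 0.19 and 0.16 under the same settings, and it was under the fold threshold without moderate mouse 3, severe mouse 1 or severe mouse 2 (-0.41, -0.48 and -0.49).

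Delta-sarcoglycan (Sgcd, ENSMUSG00000020354, chr11:46896253-47988969, minus strand) was 51.7, 51.2 and 55.1 CPM in controls, 49.5, 50.04 and 49.2 in FLExD/+, 61.4, 63.8 and 63.2 in moderate and 16.2, 29.6 and 29.6 in severe mice. The moderate mice were above and the severe mice below every control, and severe mouse 1 was the lowest. The log2 fold change of Sgcd was 0.25 ± 0.17 in moderate mice (adjusted p = 0.221) and 0.86 with library size alone (adjusted p = 0.000153). In severe mice Sgcd had a log2 fold change of -1.07 ± 0.17 (adjusted p = 7.6e-05), or -0.83 without severe mouse 1, but the direction turned to 0.22 with library size alone and 0.07 in TPM. From moderate to severe mice it fell under every scaling, with log2 differences of -1.32 ± 0.17 with TMM (adjusted p = 3.8e-05) and -0.64 at the nearest to 0.

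Sntb1 was the member with the greatest change. Sntb1 (beta-1-syntrophin, an adaptor that binds dystrophin, utrophin and dystrobrevin, ENSMUSG00000060429, chr15:55636388-55906949, minus strand) was 10.0, 9.20 and 11.7 CPM in controls and 12.8, 12.9 and 16.5 in FLExD/+. It was 67.8, 55.0 and 57.7 CPM in moderate and 45.3, 54.1 and 62.6 in severe mice, so that both models were above all single-transgenic mice and overlapped each other. Sntb1 had a log2 fold change of 2.54 ± 0.15 in moderate (5.83-fold, adjusted p = 1.2e-08) and 2.39 ± 0.14 in severe mice (5.23-fold, adjusted p = 3.8e-09). Severe and moderate mice differed by -0.16 ± 0.13 (adjusted p = 0.345), with a 95% interval of -0.44 to 0.13, and this difference turned to 0.53 with library size alone (adjusted p = 0.0032) and 0.55 in TPM.

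Dtna (alpha-dystrobrevin, which binds dystrophin and syntrophins, ENSMUSG00000024302, chr18:23415135-23659715, plus strand) was 145, 136 and 153 CPM in controls, 125, 131 and 139 in FLExD/+, 64.6, 69.4 and 87.7 in moderate and 29.7, 43.3 and 43.6 in severe mice. Both models were below all single-transgenic mice and did not overlap each other. The log2 fold change was -0.97 ± 0.14 in moderate mice (1.96-fold lower, adjusted p = 5.9e-05) and -1.90 ± 0.15 in severe mice (3.73-fold lower, adjusted p = 4e-08). With library size alone the moderate value was -0.37, under the fold threshold, and the severe value -0.60, while in TPM the severe value was -0.47, under it. The step from moderate to severe mice, -0.93 with TMM, was -0.24 with library size alone (adjusted p = 0.11) and -0.11 in TPM (adjusted p = 0.474), where it was no longer called.

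**Figure D3:**
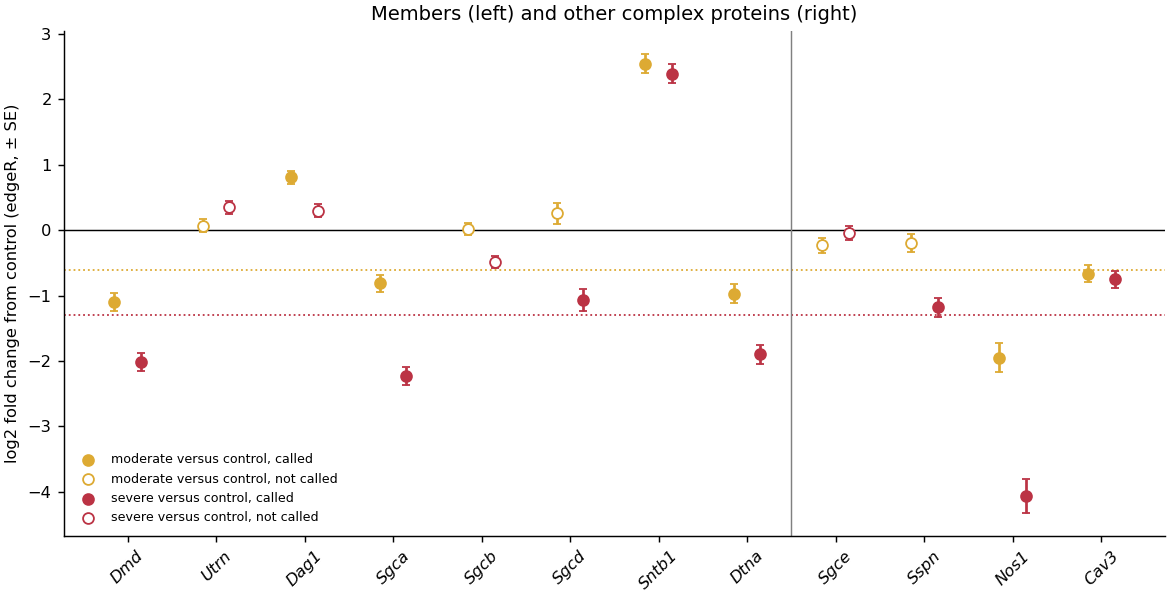
Log2 fold change from control (edgeR, ± SE) in moderate (yellow) and severe (red) mice for the 8 members (left) and 4 other complex proteins (right), filled where called. Each dotted line marks where 0 would lie with library size alone, so Sgcb, Sgcd, Sspn and Cav3 in severe mice, below 0 on the axis, lie above the red line.

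From moderate to severe mice 0 members were called higher and 6 lower (Dmd, Dag1, Sgca, Sgcb, Sgcd and Dtna), while 17.6% of all genes were called higher and 18.8% lower. The median of the 8 was -0.71 against 0.02 for all genes. Library size alone called 2 members (Utrn and Sntb1) higher and 2 (Sgca and Sgcd) lower, against 9645 and 824 of all genes, where TMM gave 2943 and 3139.

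The FLExD/+ mice did not differ detectably from the controls in any member. edgeR called 0 of the 8, with 0% of all genes called higher and 0.006% lower, and over all genes 638 had an unadjusted p under 0.05 and DESeq2 called 3. The log2 fold changes of the members were between -0.14 (Dtna) and 0.45 (Sntb1). For Dmd the 95% interval of the difference was -0.41 to 0.16, and for Sntb1 it was 0.13 to 0.77 (adjusted p = 1). The FLExD/+ mice were above all controls for Sntb1 and below all controls for Sgcd. Of all genes, 8.60% had groups apart in this comparison.

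Per length, the order of the genes changed. In control mice the mean TPM was 86.4 for Sgca, 51.6 for Dmd, 39.8 for Dtna, 35.3 for Dag1, 27.0 for Sgcd, 22.1 for Sgcb, 8.66 for Utrn and 4.99 for Sntb1, and among neighbors in this order only the ranges of Dtna and Dag1 overlapped. In severe mice it was 98.2 for Dag1, 58.9 for Sntb1, 41.4 for Sgca, 35.0 for Sgcb, 30.3 for Dmd, 29.1 for Sgcd, 28.7 for Dtna and 25.2 for Utrn. The ranges from Sgca down to Utrn each overlapped the next there, so their order is not resolved, while Dag1 and Sntb1 stood apart. Moderate mice also had Dag1 first (85.6) and Sgca next (69.9), and in FLExD/+ mice the order was that of the controls. Of the summed TPM of the 8, Sgca held 31.3% ± 0.528 (SD, n = 3) in control and 11.9% ± 1.68 in severe mice, and Sntb1 1.80% ± 0.10 and 17.0% ± 0.588. The sum itself was 276 ± 25.5 TPM in control, 262 ± 33.9 in FLExD/+, 349 ± 22.3 in moderate and 347 ± 35.8 in severe mice.

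The length that the counting tool assigned to a gene was read from the ratio of its expected count to its TPM, which follows the mean length of the transcripts the reads were assigned to. Relative to the median gene of a library, this ratio for Dtna was 1.54, 1.47 and 1.55 in controls, 1.37, 1.34 and 1.38 in moderate and 1.19, 1.28 and 1.26 in severe mice, with no overlap between the 3 groups. Dtna was thus 10.4% shorter in moderate (limma, adjusted p = 0.0184) and 18.3% shorter in severe mice (adjusted p = 0.00034). It has 6 coding transcripts of 359 to 6295 bases in GENCODE M21, which is not the merged annotation that the reads were assigned to. The moderate call was lost without control mouse 1, control mouse 3, moderate mouse 1 or moderate mouse 2, each of which left 0 members called. For Dmd the ratio was 5.36, 5.25 and 5.17 in controls and 4.80, 4.86 and 4.95 in severe mice, without overlap, or 7.36% shorter (adjusted p = 0.0009). Sntb1 was 2.64% shorter in severe mice (adjusted p = 0.0313). These 3 members were called in severe mice, where 46.5% of 9992 genes were, against 1 member and 8.68% in moderate mice and 0 members and 0.02% in FLExD/+ mice. From moderate to severe mice Dmd and Dtna were called (4.99% and 8.78% shorter), against 13% of genes, and leaving out any 1 of these mice other than severe mouse 3 left 0 or 1 called. Utrn, the other long gene, was 2.77% shorter in severe mice (adjusted p = 0.501).

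**Figure D4:**
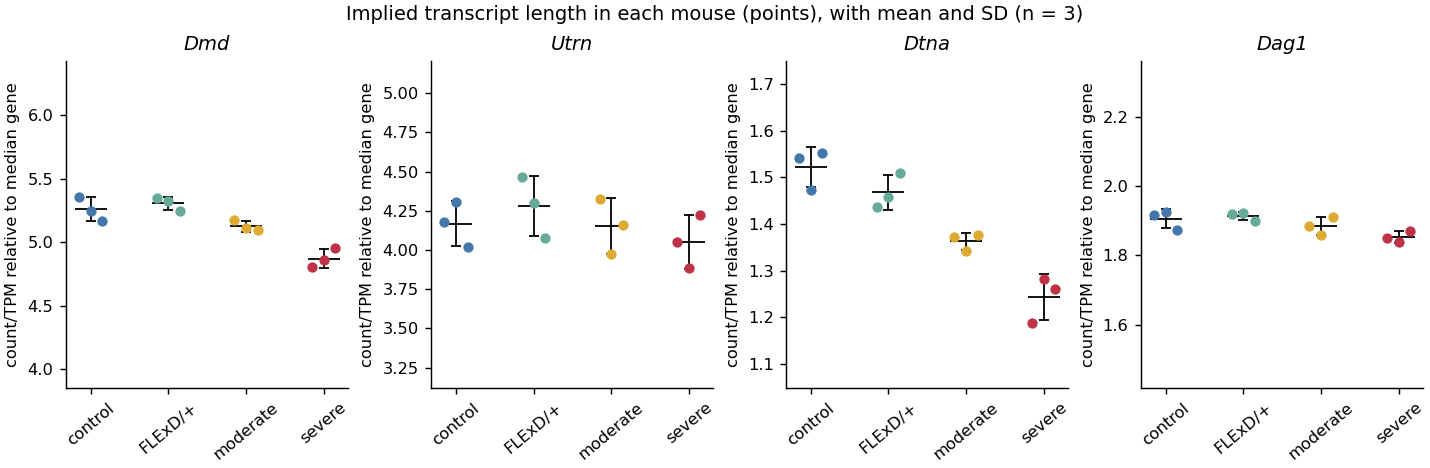
Ratio of expected count to TPM for Dmd, Utrn, Dtna and Dag1, relative to the median gene of the library, in each mouse (points) with mean and SD (n = 3), on axes that do not start at 0. Dtna lies at 1.19 to 1.28 in severe against 1.47 to 1.55 in control mice, and Utrn and Dag1 were not called.

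Other proteins of the complex were read from a list of 12 genes, of which 9 could be tested (Sgcz, Sntg1 and Sntg2 were too low). In moderate mice 2 rose (Sntb2 and Drp2) and 3 fell, and in severe mice 2 rose and 5 fell, with a median log2 fold change of -0.19 and -0.75 against 0.04 and 0.08 for all genes. Library size alone gave 3 higher and 2 lower in moderate mice, and 5 higher and 2 lower in severe mice. These counts and those of the next 3 lists stand beside 24.4% of all genes called higher and 17% lower in moderate mice and 32.9% and 27.9% in severe mice, and, with library size alone, beside 8760 higher and 752 lower of the 16679 genes in moderate mice and 12575 and 1071 in severe mice. Nos1, the enzyme that the complex holds at the membrane, was 64.0, 55.3 and 63.9 CPM in controls, 11.2, 19.1 and 17.2 in moderate and 2.61, 4.53 and 3.81 in severe mice. The 3 groups were apart, and the log2 fold change of Nos1 was -1.95 ± 0.23 in moderate (adjusted p = 2e-05) and -4.06 ± 0.25 in severe mice (adjusted p = 3.4e-08).

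Sspn (sarcospan, which binds the sarcoglycans) had a log2 fold change of -1.18 in severe mice (adjusted p = 3.5e-06) but was at 0.12 with library size alone. Cav3 (caveolin of muscle) fell in moderate and severe mice, with log2 fold changes of -0.66 and -0.75 (adjusted p = 0.00056 and 0.00011), and was at -0.06 and 0.55 with library size alone. Sgce, a relative of Sgca that is also made outside muscle, was at -0.23 ± 0.11 and -0.05 ± 0.11 (adjusted p = 0.103 and 0.723), and at 1.25 in severe mice with library size alone.

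The enzymes that build the laminin-binding sugar chain of dystroglycan were read from a list of 18, of which 17 could be tested. In moderate mice 2 rose and 6 fell and in severe mice 2 rose and 9 fell, with medians of -0.31 and -0.53, but with library size alone 8 rose and 1 fell in moderate mice and 11 rose and 1 fell in severe mice. B3galnt2, which adds a sugar to the O-mannose core, had a log2 fold change of -1.69 ± 0.11 in moderate (adjusted p = 2.5e-08) and -3.03 ± 0.11 in severe mice (adjusted p = 7.6e-11), from 141 to 168 CPM in controls to 17.1 to 20.6 CPM in severe mice. With library size alone B3galnt2 was at -1.08 and -1.73. Dpm1, of dolichol-phosphate mannose synthase, and Gtdc2, which also extends O-mannose, fell in severe mice, with log2 fold changes of -1.68 and -1.60 (adjusted p = 3.4e-06 and 9.4e-08) and were at -0.39 and -0.30 with library size alone.

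Of 6 matrix ligands of dystroglycan, 2 were called higher (Lama1 and Hspg2) and 1 lower in each model, which is close to the shares of all genes. The median was 0.12 in moderate mice over 5 genes, without Lama1, and 0.40 in severe mice over 6 genes, with Lama1. Egflam (pikachurin) had log2 fold changes of -2.45 ± 0.15 (adjusted p = 1.8e-08) and -4.10 ± 0.16 (adjusted p = 1.1e-10). Hspg2 (perlecan) rose by 0.90 ± 0.22 and 0.83 ± 0.21 (adjusted p = 0.00347 and 0.00384). Lama1 had 0 counts in each control, 2 to 5 in moderate and 31 to 66 in severe mice, and its moderate level was under the CPM that 3 counts stand for in a control library. Library size alone called 4 ligands higher in moderate and 5 in severe mice.

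Of 9 cytoskeletal partners, 4 were called higher and 1 lower in moderate mice, and 2 higher and 4 lower in severe mice, with medians of 0.05 and -0.46. Under library size alone the counts were 5 higher and 1 lower, and 6 higher and 1 lower. Synm, an intermediate filament protein that binds dystrophin and dystrobrevin, had log2 fold changes of -2.11 ± 0.20 and -4.76 ± 0.22 (adjusted p = 8.6e-07 and 3.7e-10), from 785 to 1022 CPM in controls to 23.1 to 40.8 CPM in severe mice. Des (desmin) had a log2 fold change of -1.29 ± 0.14 in severe mice (adjusted p = 9.6e-07), but was at 0.01 with library size alone. Krt8 had at most 1 count in a control mouse, 29 to 50 in moderate and 97 to 147 in severe mice. Krt19, its partner keratin, had 6 to 12 counts in controls and 2 to 4 in severe mice (adjusted p = 0.00721). That call was lost with library size alone (adjusted p = 0.146). It was lost in TPM too (limma on log2(TPM + 1), adjusted p = 0.198), but the added 1 exceeds the mean levels of 0.27 and 0.13 TPM. The TPM test therefore cannot decide whether the Krt19 call depends on the scaling.

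**Figure D5:**
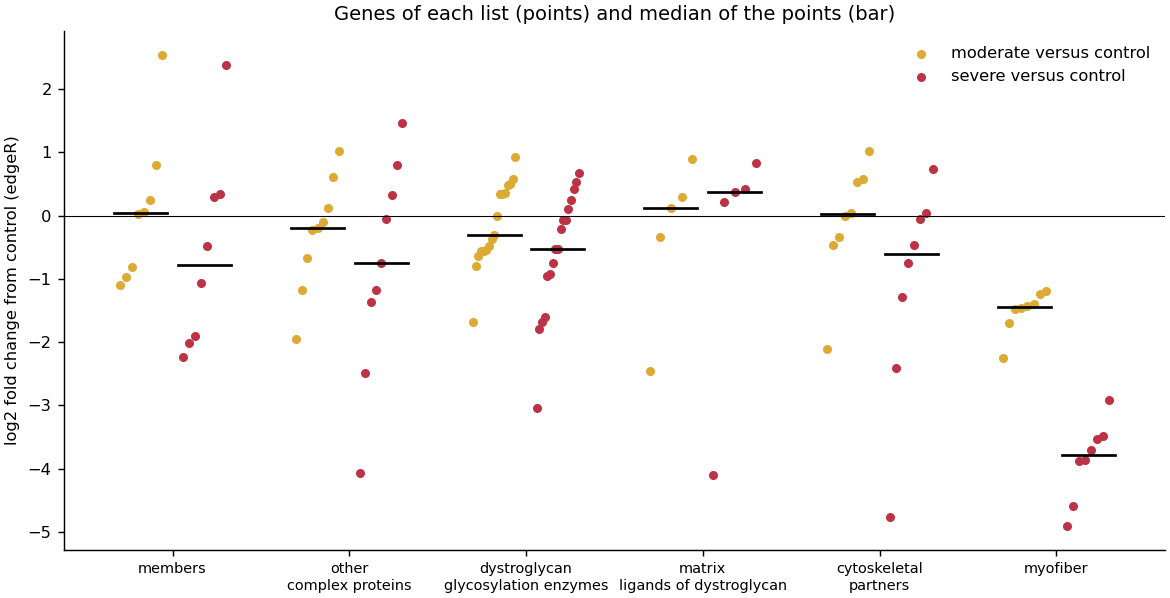
Log2 fold change from control (edgeR, TMM) of each gene of the members, 4 related lists and 8 mature fiber genes, in moderate (yellow) and severe (red) mice, with the median of the points as a bar. Lama1 and Krt8, at or near 0 in controls, are left out, the mature fiber genes lie at a median of -3.78 in severe mice, below the members at -0.78, and for the members and the lists of other complex proteins, glycosylation enzymes and cytoskeletal partners the severe median is above 0 with library size alone.

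Markers of several cell types differed between the groups too. All 8 mature fiber genes fell, with a median of -1.44 in moderate and -3.78 in severe mice, and with library size alone all 8 fell too (-0.84 and -2.49). In severe mice each of these 8 genes fell by -2.91 to -4.91, and no member fell by more than -2.23 (Sgca). Set against the mean log2 level of the 8 in the same library, every member therefore had to stand higher in severe than in control mice. The log2 differences were 1.63 (Sgca), 1.86 (Dmd), 1.97 (Dtna), 2.76 (Sgcd), 3.41 (Sgcb), 4.18 (Dag1), 4.23 (Utrn) and 6.27 (Sntb1). Their direction follows from the genes chosen as reference and does not show members kept per fiber. All 4 genes of regenerating fibers rose, from a sum of 24.3 to 26.6 CPM in controls to 343 to 603 in moderate and 1281 to 1819 in severe mice. All 6 macrophage genes rose, from 59.6 to 74.1 CPM in controls to 344 to 437 and 749 to 856. The 4 fibroblast genes summed to 603 to 1512 CPM in controls, 2239 to 2368 in moderate and 3771 to 4896 in severe mice, with 2 of 4 called higher in each model and Dcn called lower in severe mice, but with library size alone 4 of 4 were called higher in severe mice, Dcn among them at 0.51 (0.41 in TPM). The 4 endothelial genes summed to 138 to 155, 87.8 to 115 and 60.4 to 71.7 CPM, with 4 of 4 called lower in severe mice but 1 higher and 1 lower with library size alone. The 4 smooth muscle genes summed to 55.8 to 93.8, 112 to 128 and 124 to 168 CPM, with 2 called higher in moderate mice, and 1 higher and 2 lower in severe mice, or 2 higher and 0 lower there with library size alone. The 4 Schwann cell genes summed to 11.9 to 21.3, 10.7 to 32.6 and 3.76 to 7.14 CPM, with 4 of 4 called lower in severe mice and 1 of 4 with library size alone. None of these markers was at 0 in all mice. The part of any of these cell types in the levels of the 8 members was not tested.

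The genes whose pattern was most like that of Dmd over the 12 mice (Pearson r of log2 CPM, 7347 genes of at least 10 CPM) were Asrgl1 (r = 0.997), Ube2d1, Dcaf6, Tmem5 and Plcd4. Those most like Utrn were Cpsf7 (r = 0.942), Ncoa5, Cspg4, Pls3 and Srrt. The 12 mice fall into separate groups and share 1 scaling, so these values describe a pattern across groups and carry no p.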

How the data were processed

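Gastrocnemius RNA of 12 mice was sequenced as single 50-base reads after poly(A) selection and random priming. The authors aligned reads to mm10 with RSEM (version 1.2.4, calling Bowtie) and TopHat2 (version 2.0.8b) against a merged annotation, and deposited a table of RSEM expected counts and a table of TPM per gene. The deposited TPM sum to the same total, 1000000 within rounding, in each library and hold no factor between libraries. Strand is not given in the sources used here.

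Expected counts were rounded and fitted in 1 model of the 4 groups with edgeR 4.0.16 by its robust quasi-likelihood F-test after TMM scaling and filterByExpr, with Benjamini-Hochberg adjustment over 16679 genes. The SE is the absolute log2 fold change over the square root of F. Log2 fold changes and log2 differences from edgeR are given ± SE throughout, and other ± values are mean ± SD. Calls needed an adjusted p under 0.05 and a log2 fold change of 0.5 or more in size. Count over TPM was tested with limma 3.58.1 on the log2 scale over 9992 genes with at least 50 counts in every mouse, at adjusted p under 0.05 with no fold threshold. The Utrn to Dmd ratio was tested by exact permutation. The scripts were tested on simulated data. Alternatives were library size alone, library size without the 20 highest genes, median-of-ratios factors, DESeq2 1.42.0, limma on log2(TPM + 1) and log2(TPM + 0.1), other filters and thresholds, 2-group fits and leaving out each mouse.

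Groups followed the labels. The labels describe the FLExD/+ mice as mild pathology although their genotype lacks MerCreMer, and the genotype was followed. The labels' protocol calls the single 5 mg/kg injection the mild model where the sample descriptions say moderate, and the descriptions were followed. Mice are numbered by accession. The labels do not pair mice between groups. The members and gene lists were chosen with earlier results of these data known. Named were the 8 members, a set of other complex proteins, up to 4 genes of each further list with the greatest change in severe mice and no overlap with controls, and the 5 genes most like Dmd and Utrn. Some genes that this rule takes are not reported here. Sntb2, Drp2 and Dcn were named after their values were seen. Gene positions and transcripts are those of GENCODE M21 and promoter windows those of RefSeq (GRCm38.p6).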

Additional observations from a re-analysis of the deposited data

Results flagged for a closer look

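The effect of the model on 6 members differed between the 2 doses, by the edgeR test of severe against moderate mice. The difference in log2 fold change was -0.91 for Dmd, -0.51 for Dag1, -1.42 for Sgca, -0.50 for Sgcb, -1.32 for Sgcd and -0.93 for Dtna. For Dag1 and Sgcb the direction turned with library size alone and in TPM, and for Dmd and Dtna the difference was no longer called there, at -0.22 and -0.24 with library size alone.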

How the results depend on the processing

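Of 576 values of the members' log2 fold changes under the alternatives, 485 kept their direction and their side of the threshold, 38 were no longer called, 27 were newly called and 15 turned direction with a call in either fit. A further 11 took the other sign without being called in either fit, 6 in FLExD/+ against control (Sgca and Sgcb), 3 in moderate against control (Utrn and Sgcb) and 1 each in severe against control (Sgcb) and severe against moderate (Sntb1), the greatest at 0.14 in size. The 15 were 6 in severe against control and 9 in severe against moderate mice, all with library size alone or in TPM. Sgcb turned to 0.82 with library size alone, 0.64 on log2(TPM + 1) and 0.67 on log2(TPM + 0.1) in severe against control mice, and Sgcd to 0.22, 0.072 and 0.073. In severe against moderate mice Dag1 turned to 0.19, 0.20 and 0.20, Sgcb to 0.19, 0.16 and 0.16, and Sntb1 to 0.53, 0.55 and 0.56. In that comparison Dag1 (-0.49, -0.47, -0.45 and -0.50) and Sgcb (-0.49, -0.46, -0.44 and -0.49) were also under the fold threshold with DESeq2, no filter, at least 10 counts in every mouse and a fit of the 2 groups. Library size alone and both TPM scales lack a factor for library composition, and the cause of the difference between scalings was not tested.

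Members called higher in moderate mice numbered 5 with library size alone and on log2(TPM + 0.1), and 1 at a log2 fold change of at least 1. Members called lower there numbered 0 with library size alone and 1 on log2(TPM + 1), on log2(TPM + 0.1) and at a fold threshold of 1. In severe mice 4 were called higher with library size alone and on both TPM scales, 3 with the 20 highest genes left out of library size, and 3 with no fold threshold, while 2 were called lower on both TPM scales. In severe against moderate mice 2 were called higher with library size alone and on both TPM scales, 1 with 20 genes left out and 1 with no fold threshold, and 2 were called lower with library size alone, on both TPM scales and at a fold threshold of 1. Leaving out 1 mouse at a time, members with a shorter implied length numbered 0 to 1 in moderate against control and 0 to 2 in severe against moderate mice, and the latter were 0 with at least 200 counts in every mouse.

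The Utrn to Dmd ratio kept its direction in every comparison under TPM and without any 1 mouse. No paired analysis was possible because the labels give no replicate number shared between groups. With 3 mice a group, and nothing that says the mice came from separate litters, p-values measure the spread between these mice only. The depth, at least 191 counts for every member, did not limit the members, while Lama1, Krt8 and Krt19 rest on few counts.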
